A study of Mus musculus with 7 samples.

Results

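The Wnt ligands, the Frizzled receptors and 2 families of secreted Wnt inhibitors were examined in sorted Pax7-GFP cells of mouse hind leg muscle. All rows of the deposited table whose symbol begins with Wnt, Fzd, Sfrp or Dkk followed by a digit were taken, which gave 36 of 23930 genes: 19 Wnt ligands, 9 Fzd receptors, 4 Sfrp and 4 Dkk inhibitors. Fzd5 was not analysed here. No expression value entered this choice. RNA was measured in 7 libraries, of which 3 were from normocapnia (NC1 to NC3) and 4 from hypercapnia (HC1 to HC4). All mice carried an inducible Pax7-GFP reporter. The labels give the strain as C57BL/6 for the first sample and raise its last number by 1 with each sample, up to C57BL/12, and the strain was not checked further. The mice entered the experiment at 12 weeks of age, received tamoxifen, and were collected at 16 weeks after 4 weeks in normocapnia or hypercapnia. The methods of the study give 10% CO2 for the hypercapnia chamber, room air for controls, Cre driven from the Pax7 locus, and cardiotoxin injury of the muscle 3 days before collection, whereas the labels mention no injury and the title of the table reads 40 h. The reporter marks cells that expressed Pax7 when tamoxifen was given and their progeny, so a sorted cell need not express Pax7 at collection.

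Wnt ligands are secreted, lipid-modified glycoproteins. They bind Frizzled receptors together with the co-receptors Lrp5 or Lrp6, which stabilizes β-catenin and lets it act with TCF/LEF factors in the nucleus, and through Frizzled with other partners they also act on cell polarity and calcium. Secreted Frizzled-related proteins (Sfrp) bind Wnt ligands outside the cell, and several Dickkopf proteins (Dkk) bind Lrp5 and Lrp6. In muscle, Wnt signals are known to act on satellite cells during repair: Wnt7a through Fzd7 is linked to the expansion of satellite cells and to polarity, and β-catenin signaling to the differentiation of their progeny.

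To show the sequence next to the genes that the results turn on, 4 promoters are given, chosen with their values known: Fzd1 and Fzd4, whose difference between conditions had opposite signs in 2 sets of libraries, Fzd7, whose difference had 1 sign in both, and Wnt4, a ligand read in each library. Each run holds the 250 bases before the annotated start of the gene, 5′ to 3′ on the strand of the gene, outside the transcribed region, from RefSeq on GRCm38.p6. The positions are chr5:4758217-4758466 on the minus strand for Fzd1, chr7:89404116-89404365 on the plus strand for Fzd4, chr1:59481897-59482146 on the plus strand for Fzd7 and chr4:137277385-137277634 on the plus strand for Wnt4. Capitals mark matches on either strand to 4 motifs, and neighbouring matches can overlap. CTTTGA is a core of TCF/LEF sites. CAGCTG is an E-box of the MyoD type. GGGCGG is a GC box. TATAAA is a TATA box.
Fzd1: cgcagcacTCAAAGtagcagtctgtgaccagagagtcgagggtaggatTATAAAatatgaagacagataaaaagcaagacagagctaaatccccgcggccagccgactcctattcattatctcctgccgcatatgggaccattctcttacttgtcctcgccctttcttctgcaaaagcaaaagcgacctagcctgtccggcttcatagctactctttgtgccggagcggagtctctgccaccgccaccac
Fzd4: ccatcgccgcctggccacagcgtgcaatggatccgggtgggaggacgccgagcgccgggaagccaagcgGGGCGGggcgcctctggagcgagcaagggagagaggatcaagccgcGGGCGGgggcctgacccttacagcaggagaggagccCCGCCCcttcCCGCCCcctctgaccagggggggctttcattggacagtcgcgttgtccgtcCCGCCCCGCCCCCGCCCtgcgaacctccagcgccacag
Fzd7: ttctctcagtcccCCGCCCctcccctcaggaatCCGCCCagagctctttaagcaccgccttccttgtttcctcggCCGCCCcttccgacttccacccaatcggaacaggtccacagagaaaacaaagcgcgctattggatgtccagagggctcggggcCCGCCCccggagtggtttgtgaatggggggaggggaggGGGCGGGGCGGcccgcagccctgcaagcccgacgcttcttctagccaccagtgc
Wnt4: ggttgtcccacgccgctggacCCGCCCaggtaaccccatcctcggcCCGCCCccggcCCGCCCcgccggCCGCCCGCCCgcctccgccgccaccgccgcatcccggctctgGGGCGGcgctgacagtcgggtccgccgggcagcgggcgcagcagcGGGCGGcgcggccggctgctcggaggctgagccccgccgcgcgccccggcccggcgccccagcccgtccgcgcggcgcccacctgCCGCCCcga
The Fzd1 window held 1 CTTTGA match on the opposite strand, 242 bases before the start, and a TATAAA match 202 bases before it. Fzd4, Fzd7 and Wnt4 held only GC boxes, with 7, 6 and 8 matches.

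Of the 36 genes, 24 had a promoter entry, in 27 windows. A GC box stood in 19 of 27 windows (70.4%), against 32.7% of all 32851 windows, and the median GC content was 68% against 52.4%, with a median of 22 against 6 CpG. CTTTGA was found in 4 of 27 windows (14.8%, against 13.8% of all windows), those of Dkk1, Fzd1, Wnt5b and Wnt11. CAGCTG was found in 2 (7.41%, against 13.0%), and TATAAA in 4 (14.8%, against 12.4%). These are counts of letters in fixed windows. In the annotation, 4 pairs of the Wnt genes are direct neighbours: Wnt6 with Wnt10a on chromosome 1, Wnt3a with Wnt9a and Wnt9b with Wnt3 on chromosome 11, and Wnt10b with Wnt1 on chromosome 15. In the pair of Wnt3a and Wnt9a, Wnt3a had 1 read in all 7 libraries and Wnt9a had 172. The other 3 pairs had between 0 and 11 reads for either gene.

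The values are RPM, reads scaled to a common total of panel reads. Each gene was read through its own amplicon, so a level can be compared between libraries but not between genes. Libraries held 14527445 to 23388710 reads, 1 read was worth 0.0428 to 0.0688 RPM, and 3 reads, taken as the floor, 0.128 to 0.207 RPM. These floors cover counting error only. Libraries differed in ways that the conditions do not name. The 6 satellite cell markers summed to 75.2 to 1416 RPM in normocapnia, with NC1 highest, and to 205 to 662 RPM in hypercapnia. Pax7 itself stood at 268, 8.25 and 4.34 RPM in NC1 to NC3 and at 21.5, 20.1, 79.5 and 59.7 RPM in HC1 to HC4. The 6 macrophage markers summed to 10394 to 32344 RPM in normocapnia, and to 17782 to 21288 RPM in hypercapnia, so macrophage RNA was read in every library of this Pax7-GFP sort. Most of the sum was Lyz2, which alone made it highest in NC3 (29108 RPM), whereas Adgre1 and Cd14 were at their lowest there (70.5 and 431 RPM). No marker of either list was at 0 in any library, and among all cell type markers only Adgre1 (macrophage) and Cspg4 (mural) met the call rule given below. Xist, the RNA that coats the inactive X chromosome, ran from 445 to 701 RPM in NC1, NC2, HC1 and HC2 and from 0 to 0.125 RPM in NC3, HC3 and HC4. The Y-linked gene Ddx3y split the libraries the same way, at 206, 126 and 103 RPM in NC3, HC3 and HC4 and at 0 in the other 4, as did Eif2s3y, Uty and, at 3.65 to 12.6 RPM against at most 0.178 RPM, Kdm5d. The labels give no sex, and the methods say that both sexes were used. NC3 was the only normocapnia library without Xist, so its set and the library itself cannot be told apart.

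Over all 7 libraries, the share of the 36 genes called between hypercapnia and normocapnia was near that of all genes. It was not tested as a set, and it moved with the fit, as given further on. The call rule, that of the study, was a fold change of more than 1.5 either way with a p below 0.05 before adjustment, in limma fitted on log2(RPM + 1) over all genes. It called 1 of the 36 (2.78%), Dkk3, which was lower in hypercapnia, and 2.57% of all genes, of which 1.43% of all genes were higher and 1.14% lower. After Benjamini-Hochberg adjustment in limma no gene of the table passed 0.05: the lowest adjusted p was 0.351 over all genes and 0.650 among the 36, although 1114 genes and 2 of the 36 had an unadjusted p under 0.05. On whole reads recovered from the RPM values, edgeR with a filter on low counts called 0 of the 36 by the same rule. Of all genes it called 802 (0 after adjustment), 294 higher and 508 lower. Without a filter edgeR called 1 of the 36, Wnt7a, and 1049 of all genes, 407 higher and 642 lower. DESeq2 called 1 of the 36 and 1304 of all genes (29 after adjustment, none of them among the 36), 519 higher and 785 lower. The conditions did not overlap for 2 of the 36 (5.56%), Dkk3 and Wnt7a, against 4.83% of all genes. Among the 17 members that averaged 1 RPM or more, 12 had a difference above 0 and 5 below, with a median log2 difference of 0.14, beside 0.16 over all 12504 genes at that level. With median-of-ratios scaling the split was 10 above and 7 below, with medians of 0.11 and 0.04, and under quantile normalization it was 8 above and 9 below, with both medians at −0.01. In bulk RNA, fewer cells of a type and less RNA per cell cannot be told apart.

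**Figure D1:**
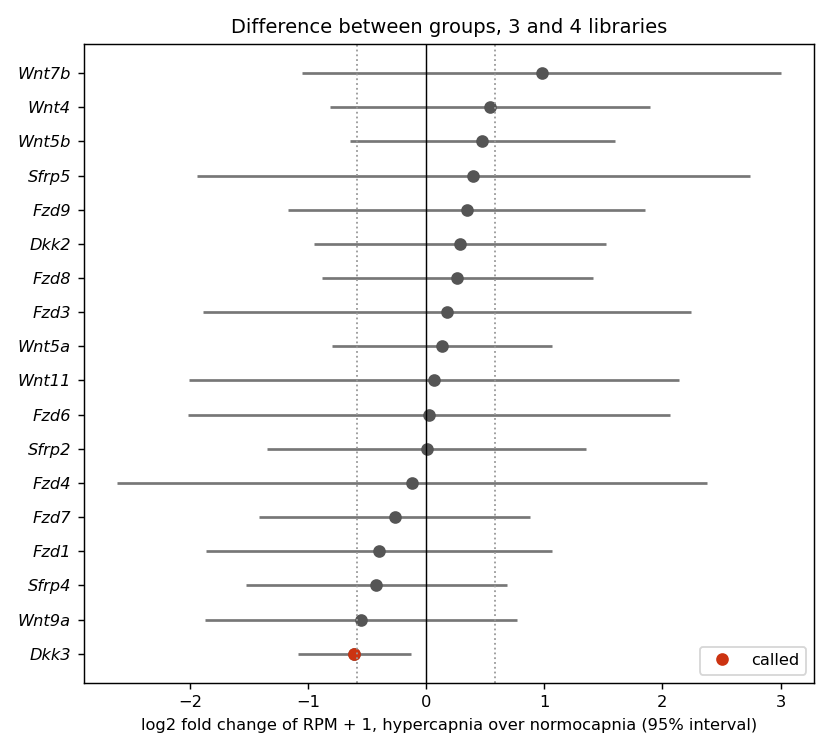
Difference between hypercapnia and normocapnia on the log2(RPM + 1) scale (x axis) for the members that averaged 1 RPM or more and Dkk3 (y axis), with the 95% confidence interval of limma. The interval of Dkk3, −1.09 to −0.13, is the only one that leaves out 0.

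Among the ligands, 6 of 19 had a mean of at least 1 RPM: Wnt4, Wnt5a, Wnt5b, Wnt7b, Wnt9a and Wnt11. None of the 19 met the call rule. Wnt4, a ligand with roles in kidney and gonad development that is also made by muscle fibers, stood at 6.11, 5.30 and 1.17 RPM in NC1 to NC3 and at 5.69, 5.53, 3.12 and 10.0 RPM in HC1 to HC4. The low library was NC3 and the high one HC4, and the conditions overlapped (log2 difference 0.54, SE 0.54, 95% CI −0.82 to 1.89). With NC3 left out the difference was −0.004. Wnt7b, a ligand known in lung and nerve development, stood at 6.38 RPM in NC1, 0.128 RPM in NC2 (3 reads) and 0 in NC3, while hypercapnia gave 2.61, 1.36, 4.31 and 4.60 RPM for HC1 to HC4. All 4 hypercapnia libraries lay above NC2 and NC3 and below NC1 (log2 difference 0.98, SE 0.81, 95% CI −1.05 to 3.01). Without NC1 the difference was 1.91 and met the call rule. NC1 is the library with the most satellite cell marker RNA. It also had the most myofiber and tendon marker RNA (1076 and 78.3 RPM in sum) and the least macrophage marker RNA (10394 RPM). Wnt7b was also called higher with the satellite cell (0.65) or the macrophage (1.99) markers as covariate. The cause of these moves was not tested.

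Wnt11, which acts mainly on cell movement and polarity, was read 93 and 157 times in NC1 and NC2 and once in NC3, that is 4.15, 6.71 and 0.069 RPM. In hypercapnia it stood at 1.11, 1.41, 4.75 and 5.15 RPM in HC1 to HC4. The range of normocapnia covered that of hypercapnia, and the difference between the means was 0.07 on the log2 scale (SE 0.83, 95% CI −2.003 to 2.143). Wnt5a, a ligand of the β-catenin independent branch, stood at 1.92, 1.67 and 0.275 RPM in normocapnia and at 1.28, 0.754, 1.31 and 2.37 RPM in hypercapnia (log2 difference 0.14, SE 0.37, 95% CI −0.79 to 1.07). Its relative Wnt5b had 1.69, 0.299 and 0.275 RPM in normocapnia and 0.514, 0.653, 2.25 and 2.37 RPM in hypercapnia (log2 difference 0.47, SE 0.45, 95% CI −0.65 to 1.59). In both genes NC3 was the lowest library and HC4 the highest. Wnt9a stood at 4.33, 1.07 and 0.275 RPM in normocapnia and at 0.214, 0.452, 0.875 and 1.22 RPM in hypercapnia, with NC1 far above the rest (log2 difference −0.55, SE 0.53, 95% CI −1.87 to 0.77). That difference was 0.02 with NC1 left out and −1.01 with NC3 left out.

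The other 13 ligands had a mean under 1 RPM. Of these, Wnt8a, Wnt8b and Wnt10a were at 0 in every library, and 7 more had at most 3 reads in any library, so their values lie at or under the floor. Wnt2b ranged from 0 to 24 reads, Wnt2 from 0 to 9 and Wnt10b from 0 to 7. Wnt7a, the ligand best known for acting on satellite cells, had 2, 1 and 1 reads in NC1 to NC3 and none in hypercapnia. Its conditions therefore did not overlap (limma adjusted p = 0.650), yet the log2 difference was −0.09, below the fold threshold, and every value lay under the floor of 3 reads. With a pseudocount of 0.1 and in edgeR without a filter Wnt7a was called lower, on these 4 reads.

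**Figure D2:**
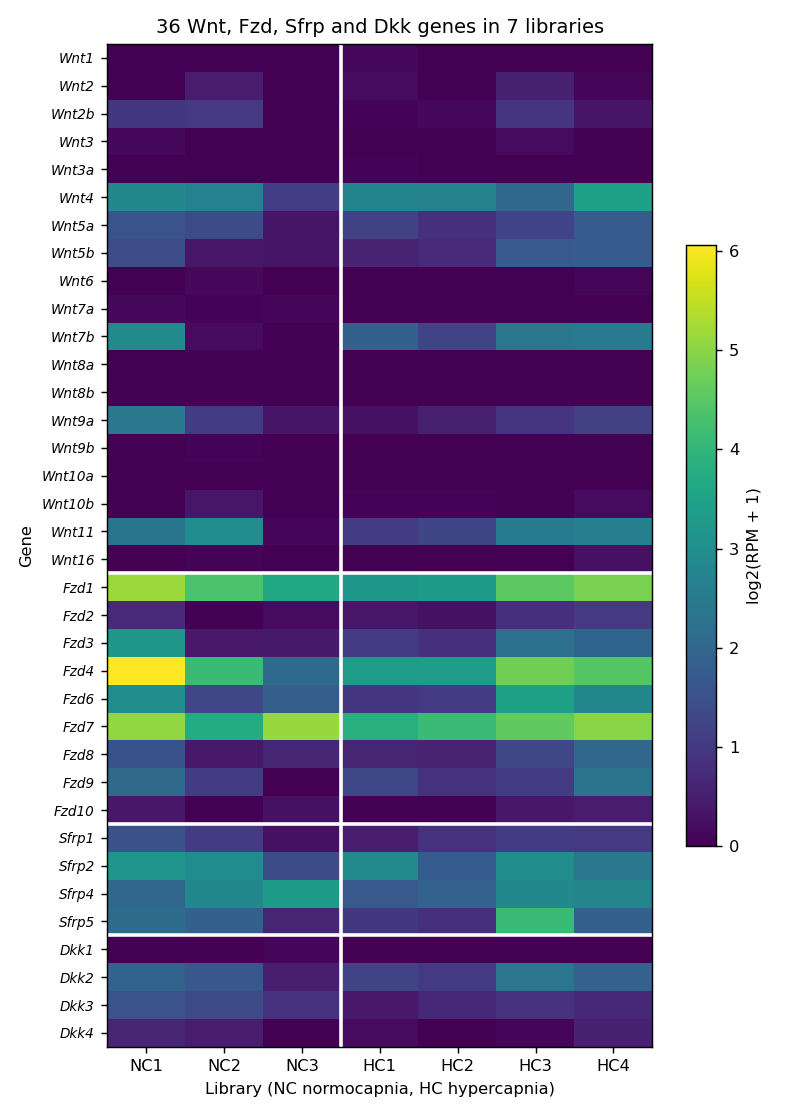
Level of each of the 36 genes (rows, by family) in each library (columns), as log2(RPM + 1). Fzd1, Fzd4 and Fzd7 are above 0 in each library and 13 of the 19 ligand rows stay low, with at most 1.03 RPM (Wnt2b in NC2). Wnt7b and Wnt11 are near 0 in NC3, with 0 and 0.069 RPM.

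Of the 9 Frizzled receptors, 7 had a mean of at least 1 RPM and none met the call rule. Fzd7, the receptor linked to Wnt7a in satellite cells, varied least among them, with 2.76 times between its highest and lowest library, at 32.6, 12.4 and 34.1 RPM in NC1 to NC3 and at 13.2, 16.6, 22.9 and 30.5 RPM in HC1 to HC4. The values of hypercapnia lay within the range of normocapnia (log2 difference −0.27, SE 0.46, 95% CI −1.42 to 0.88). Fzd4, the receptor for Norrin in vessels, ran at 65.9, 16.5 and 3.30 RPM in normocapnia and at 9.16, 9.25, 25.8 and 21.3 RPM in hypercapnia. Its 3 normocapnia libraries spanned 1478, 386 and 48 reads, and all 4 hypercapnia libraries lay between NC3 and NC1 (log2 difference −0.12, SE 0.9996, 95% CI −2.62 to 2.38). The sign turned with the library left out, at 0.86 without NC1 and −1.12 without NC3. Fzd1 ran at 34.6, 19.3 and 11.4 RPM in normocapnia and at 8.30, 8.94, 22.4 and 27.6 RPM in hypercapnia. HC1 and HC2 lay below all normocapnia libraries, while HC3 and HC4 lay between NC2 and NC1 (log2 difference −0.40, SE 0.59, 95% CI −1.86 to 1.07).

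Fzd6, which takes part in hair and tissue polarity, stood at 7.00, 1.45 and 2.55 RPM in normocapnia and at 0.942, 1.05, 10.0 and 6.03 RPM in hypercapnia (log2 difference 0.03, SE 0.82, 95% CI −2.01 to 2.07). Fzd3, a receptor of axon guidance, stood at 8.21, 0.342 and 0.344 RPM in normocapnia and at 1.11, 0.804, 3.69 and 2.84 RPM in hypercapnia (log2 difference 0.17, SE 0.83, 95% CI −1.89 to 2.24). For both genes NC1 lay well above NC2 and NC3, and HC3 and HC4 above HC1 and HC2. Fzd8 had 1.87, 0.342 and 0.551 RPM in normocapnia and 0.556, 0.502, 1.44 and 2.98 RPM in hypercapnia (log2 difference 0.27, SE 0.46, 95% CI −0.88 to 1.41). Fzd9 had 3.26, 1.11 and 0 RPM in normocapnia and 1.498, 0.854, 1.06 and 4.06 RPM in hypercapnia (log2 difference 0.34, SE 0.60, 95% CI −1.17 to 1.85). Fzd2 and Fzd10 stayed under a mean of 1 RPM, with 0 to 15 and 0 to 7 reads per library.

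**Figure D3:**
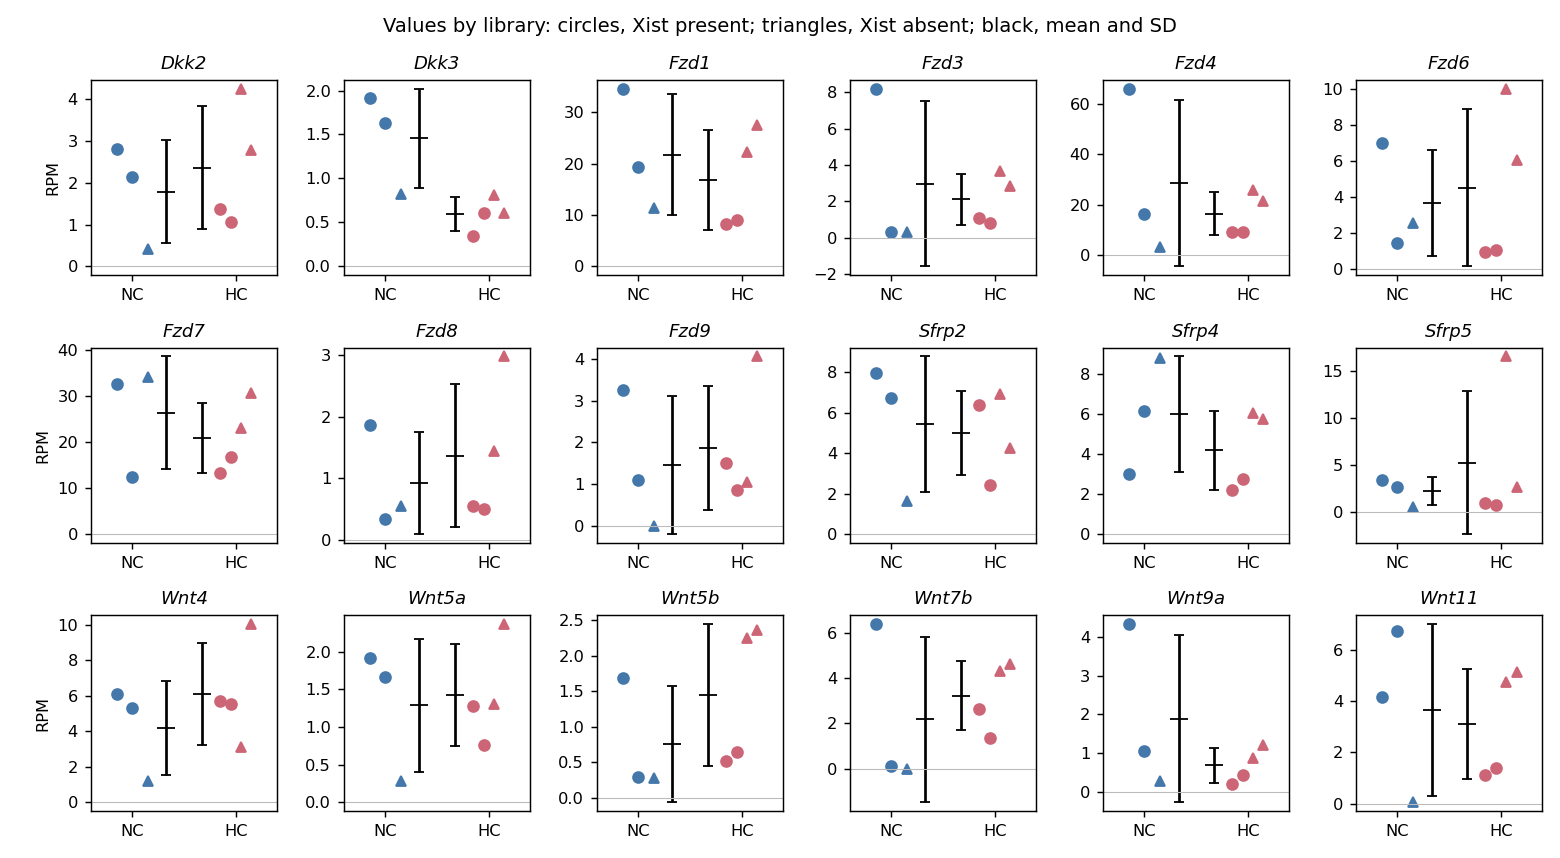
RPM on a linear scale that differs between panels (y axis) in each library of normocapnia (NC, blue, 3 libraries) and hypercapnia (HC, red, 4 libraries), 1 panel for each of 18 genes, with circles for libraries with Xist, triangles for those without, and the mean and SD in black. The blue triangle (NC3) is the lowest point for Wnt11 and Fzd4, at 0.069 and 3.30 RPM, and the red triangles (HC3 and HC4) lie above the red circles for Fzd1, Fzd3, Fzd4 and Fzd6.

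Of the Sfrp inhibitors, Sfrp2, Sfrp4 and Sfrp5 had a mean of at least 1 RPM and none of the 4 met the call rule. Sfrp2, which is made by fibroblast-like cells of many tissues, stood at 7.94, 6.71 and 1.65 RPM in normocapnia and at 6.38, 2.41, 6.93 and 4.27 RPM in hypercapnia, and the ranges overlapped (log2 difference 0.00, SE 0.54, 95% CI −1.34 to 1.35). Sfrp4 stood at 3.03, 6.16 and 8.81 RPM in normocapnia and at 2.23, 2.76, 6.06 and 5.75 RPM in hypercapnia (log2 difference −0.42, SE 0.44, 95% CI −1.52 to 0.68), and it was 1 of 3 genes of the 36 with their highest value in NC3. Sfrp5 stood at 3.43, 2.65 and 0.551 RPM in normocapnia and at 0.984, 0.754, 16.6 and 2.64 RPM in hypercapnia, so that HC3 alone exceeded every other library (log2 difference 0.40, SE 0.94, 95% CI −1.94 to 2.74). Sfrp1 stayed under a mean of 1 RPM, at 1.83, 1.07 and 0.207 RPM in normocapnia and at 0.385, 0.854, 1.12 and 1.016 RPM in hypercapnia. The 6 fibro-adipogenic markers summed to 1066 to 1880 RPM in normocapnia and to 966 to 2353 RPM in hypercapnia, and their part in these levels was not tested.

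Dkk3, a divergent member of the Dickkopf family, was lower in hypercapnia and was the only gene of the 36 to meet the call rule. It stood at 1.92, 1.62 and 0.826 RPM in NC1 to NC3 (43, 38 and 12 reads) and at 0.342, 0.603, 0.812 and 0.609 RPM in HC1 to HC4 (8, 12, 13 and 9 reads). The conditions were apart, but by no more than 0.826 RPM in NC3 against 0.812 RPM in HC3. The log2 difference was −0.61 (SE 0.19, 95% CI −1.09 to −0.13, limma adjusted p = 0.915). The call was lost in 10 of 21 alternatives. These were edgeR with and without a filter (log2 difference −1.35 on whole reads), a pseudocount of 5 (−0.20), the fits without NC1 (−0.47), NC2 (−0.54) or HC1 (−0.53), a replicate block (−0.61), Xist (−0.58) or the macrophage markers (−0.49) as covariate, and the libraries without Xist alone. The difference was −0.92 in the libraries with Xist and −0.10 in those without. Dkk2, an inhibitor that binds Lrp6, stood at 2.81, 2.14 and 0.413 RPM in normocapnia and at 1.37, 1.05, 4.25 and 2.78 RPM in hypercapnia (log2 difference 0.29, SE 0.49, 95% CI −0.95 to 1.52). Dkk4 had 0 to 12 reads per library, and Dkk1, the best known inhibitor of this family, had 1 read in all.

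The difference between conditions took opposite signs in the libraries with and without Xist for many of these genes, a split that was chosen after the values were seen. In 12 of the 36 (33.3%), both hypercapnia libraries lay below both normocapnia libraries where Xist was present, and both lay above NC3 where it was absent. This held for 11.8% of all genes. Of the 12, 9 had a mean of at least 1 RPM (Wnt5a, Wnt9a, Wnt11, Fzd1, Fzd4, Fzd6, Sfrp2, Sfrp5 and Dkk2). These were 9 of the 17 members at that level, and among all genes at that level the share was 18.6%. The reverse arrangement was shown by 0 of the 36 and by 2.13% of all genes. NC3 alone stands for normocapnia without Xist, so each of these patterns rests on that library.

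The interaction term sets an arm of 1 library, NC3, against the rest and assumes that it varies like the other libraries, so its SE and p carry no replicate of normocapnia without Xist. For Wnt11 the log2 difference was −1.48 with Xist and 2.48 without, the latter against a single read in NC3. Its interaction was 3.96 (SE 0.37, limma adjusted p = 0.039), and 766 genes of the whole table also had an adjusted p under 0.05. For Fzd4 the differences were −1.75 and 2.50 (interaction 4.25, SE 1.17, adjusted p = 0.171), for Fzd1 −1.48 and 1.06 (interaction 2.55, SE 0.52, adjusted p = 0.112), and for Dkk2 −0.65 and 1.66 (interaction 2.30, SE 0.35, adjusted p = 0.075). Wnt5a gave −0.48 and 1.13 (interaction 1.61, SE 0.40, adjusted p = 0.148). An unadjusted interaction p under 0.05 was reached by 9 of the 36 (25.0%), beside 21.2% of all genes. Of these 9, Dkk1 had a single read, in NC3, and Dkk3, Sfrp1 and Wnt2b averaged under 1 RPM. Fzd7 (−0.42 and −0.36) and Sfrp4 (−0.62 and −0.51) had the same sign in both sets, as did Dkk3 (−0.92 and −0.10) and Wnt7b (0.02 and 2.45).

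**Figure D4:**
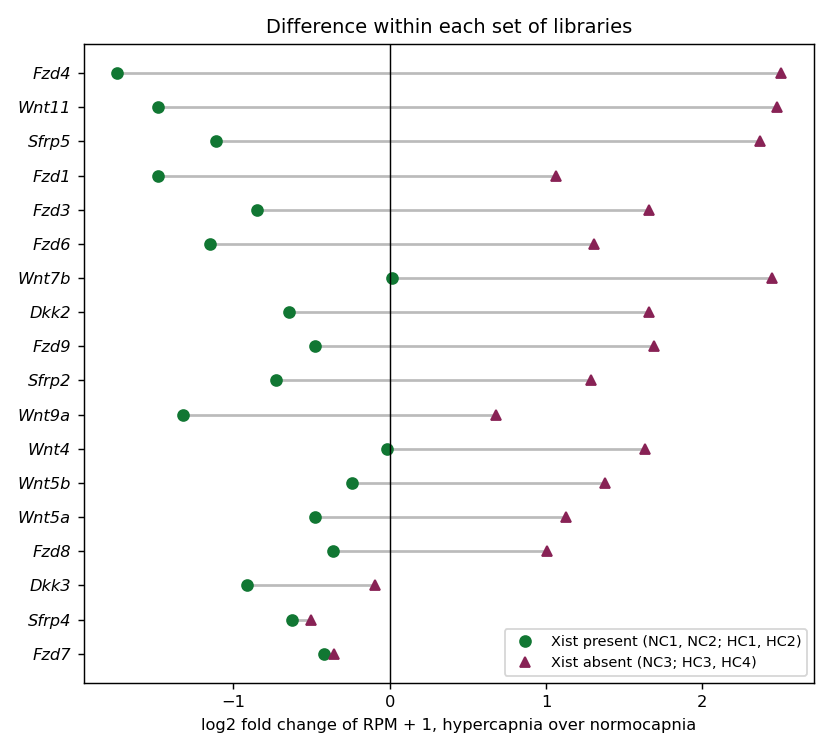
Difference between hypercapnia and normocapnia on the log2(RPM + 1) scale (x axis) for 18 genes (y axis), within the libraries with Xist (green circles, 2 against 2) and within those without (purple triangles, 1 normocapnia against 2 hypercapnia), joined by a line. Circle and triangle lie on opposite sides of 0 for most genes and farthest apart for Fzd4 (−1.75 and 2.50) and Wnt11 (−1.48 and 2.48). For Fzd7, Sfrp4 and Dkk3 both lie below 0, and for Wnt7b both lie above it (0.02 and 2.45).

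Fitted apart, the libraries with Xist gave 6 of the 36 lower in hypercapnia by the call rule (Dkk2, Dkk3, Fzd1, Sfrp5, Wnt2b and Wnt11) and none higher, where 2.64% of all genes were lower and 1.6% higher. In the libraries without Xist, NC3 alone was set against HC3 and HC4, and it was assumed to vary as those libraries do, so the calls have no replicate behind normocapnia. That fit gave 6 higher (Fzd3, Fzd4, Sfrp1, Wnt5b, Wnt7b and Wnt11) and none lower, or 16.7% and 0, against 17.1% and 3.71% of all genes. Only Wnt11 was in both lists. Libraries also differed within hypercapnia: HC3 and HC4 both lay above HC1 and HC2 for 19 of the 36 (52.8%) against 30.9% of all genes, and both lay below for 0 of the 36, against 15% of all genes. HC3 and HC4 also held more endothelial marker RNA (481 and 374 RPM in sum, against 56.5 and 43.0 RPM in HC1 and HC2), and more satellite cell marker RNA (662 and 481 RPM, against 216 and 205 RPM). The same order held in sum for mural markers (176 and 104 RPM, against 36.9 and 32.0 RPM) and neutrophil markers (170 and 112 RPM, against 48.4 and 12.8 RPM). So it did for tendon markers (61.04 and 58.1 RPM, against 21.4 and 20.6 RPM) and Schwann cell markers (57.1 and 18.1 RPM, against 5.14 and 5.38 RPM). Myofiber markers (278 and 455 RPM, against 217 and 140 RPM) and lymphocyte markers (1.87 and 2.71 RPM, against 0.685 and 0.401 RPM) followed it in sum. Acta1 (myofiber) did not, with 76.5 RPM in HC3 against 129 and 78.1 RPM in HC1 and HC2. Nor did Ms4a1 (lymphocyte), with 0.406 RPM in HC4 against 0.471 RPM in HC1. Some lymphocyte values lay under the floor. The macrophage marker sum went the other way (17782 and 17805 RPM, against 21288 and 18100 RPM), with Lyz2, most of it, between HC2 and HC1 in both. The 6 fibro-adipogenic markers summed to 1921 and 2353 RPM against 1066 and 966 RPM, but most of this gap was Dcn (1050 and 1356 RPM, against 188 and 169 RPM). Col3a1 went the other way (58.6 and 64.5 RPM, against 144 and 96.7 RPM). Col1a1 (549 and 684 RPM, against 623 and 556 RPM) and Ly6a (135 and 93.6 RPM, against 63.5 and 103 RPM) overlapped. The part of these cells in the Wnt gene levels was not tested. In normocapnia NC1 was the highest of all 7 libraries for 10 of the 33 genes with any read (30.3%), against 26.8% of all such genes.

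The rest of the pathway, from lists written with earlier results of these data known, is given for comparison. Of 91 listed genes 89 were analysed; Rhoa and Rac1 were not analysed here. The call rule gave 1 higher, 1 lower and 87 not called, where it called 2.57% of all genes. The median log2 difference was 0.02, beside 0.02 over all genes. These medians have unlike bases: 69 of the 89 averaged 1 RPM or more, against 52.3% of all genes. All genes at that level had a median of 0.16. Invs, which encodes inversin, a switch between the β-catenin and polarity branches, was higher in hypercapnia, at 15.9, 15.5, 13.4 and 15.6 RPM against 10.8, 8.59 and 7.23 RPM in normocapnia. The conditions did not overlap (log2 difference 0.72, SE 0.13, 95% CI 0.39 to 1.06, adjusted p = 0.650). Znrf3, a ubiquitin ligase that removes Frizzled receptors from the cell surface and is itself a target of β-catenin, was lower, at 15.1, 14.8, 18.6 and 20.2 RPM against 39.4, 22.3 and 24.2 RPM. Here too the conditions did not overlap (log2 difference −0.67, SE 0.23, 95% CI −1.25 to −0.10, limma adjusted p = 0.915). Mapk8 and Nfatc3 of the polarity and calcium branch, both lower, did not overlap either but were not called. Among all genes 4.83% did not overlap. The call of Znrf3 was lost without NC1 (−0.43), HC1 (−0.62) or HC2 (−0.61), with a filter at 1 RPM, with a pseudocount of 5 (−0.57), with a replicate block (−0.75), with the macrophage markers as covariate (−0.36) and in the libraries with Xist (−0.94) or without it (−0.31) alone. That of Invs was lost in edgeR with a filter (0.69) and without (0.70), with a pseudocount of 5 (0.54), under quantile normalization (0.49) and in the libraries without Xist alone (0.91).

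Of the co-receptors, Lrp6 stood at 118 to 189 RPM in normocapnia and at 105 to 163 RPM in hypercapnia (log2 difference −0.03, SE 0.23, 95% CI −0.61 to 0.54). Lrp5 stood at 103, 74.5 and 17.7 RPM in NC1 to NC3 and at 77.3 to 84.2 RPM in hypercapnia, with NC3 far below the other 6 (log2 difference 0.64, SE 0.61, 95% CI −0.88 to 2.15). Ctnnb1, which encodes β-catenin, followed the same order, with 456, 254 and 62.6 RPM in normocapnia and 312 to 361 RPM in hypercapnia (log2 difference 0.76, SE 0.67, 95% CI −0.93 to 2.44). Without NC3 the difference was −0.11 for Lrp5 and −0.05 for Ctnnb1. Wls, needed for ligand release, differed by −0.15 (SE 0.22), and Porcn, the enzyme that attaches the lipid to Wnt ligands, by −0.68 (SE 0.38, 95% CI −1.63 to 0.27). Porcn was called lower without NC2 (−1.03), under quantile normalization (−0.96), in DESeq2 (−1.003) and with the satellite cell markers as covariate (−0.81).

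None of the usual targets of β-catenin other than Znrf3 met the call rule, with 12 of 13 not called. Axin2 stood at 14.7, 2.35 and 0.826 RPM in normocapnia and at 2.23, 4.32, 9.18 and 7.65 RPM in hypercapnia, high in NC1 and again higher in HC3 and HC4 than in HC1 and HC2 (log2 difference 0.44, SE 0.85, 95% CI −1.67 to 2.56). Nkd1, Lgr5 and Lef1 differed by 0.18, −0.21 and −0.27. Ccnd1, the cyclin of early cell cycle entry, stood at 125, 33.9 and 6.61 RPM in normocapnia and at 81.7 to 93.1 RPM in hypercapnia, and its 4 hypercapnia libraries lay between NC2 and NC1 (log2 difference 1.43, SE 0.93, 95% CI −0.90 to 3.77). Without NC1 it was 2.42 and called, and without NC3 it was 0.39. Among the most read genes of the other lists, Igfbp4 differed by 1.04 (SE 0.62; 1.67 and called without NC1, 0.34 without NC3), Aes by 0.37 (SE 0.18), Nfatc1 by 0.21 (SE 0.14) and Csnk1a1 by −0.25 (SE 0.29), and none was called in the fit reported. With the macrophage markers as covariate Aes was called, at 0.59.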

How the data were processed

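RNA of sorted Pax7-GFP cells was sequenced by the authors from AmpliSeq libraries, with 1 amplicon per gene, on an Ion S5 instrument. They deposited RPM values, reads scaled to a common total of panel reads. The submitters' notes name the Transcriptome Analysis Console. For the aligner, and likewise the build: not given in the sources used here. Groups came from the sample labels. Whole reads were recovered from the RPM steps (100% of values whole within 0.05 read) for the count tests alone.

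Differential expression was tested in R 4.3.3 with limma 3.58.1, taking log2(RPM + 1) of all 23930 genes, no filter, with p-values two-sided. Where nothing states separate animals, p-values measure only the spread between these libraries. Genes and lists were chosen with earlier results of these data known. Members with a mean of at least 1 RPM, and any called one, are named with values in each library. Of the other pathway genes, those called, the most read of each list and 9 set ones (Axin2, Lef1, Nkd1, Lgr5, Ctnnb1, Lrp5, Lrp6, Wls and Porcn) are named. The alternatives were a pseudocount of 0.1 or 5, a filter at 1 RPM, 2 other scalings and a prior variance that follows the mean. Further ones were edgeR 4.0.16 and DESeq2 1.42.0 on whole reads, each library left out, a replicate block, and Xist as covariate. Chosen after values were seen were covariates for macrophage and satellite cell markers and each Xist set alone. Tests were checked on simulated data.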

Additional observations from a re-analysis of the deposited data

Results flagged for a closer look

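Within hypercapnia, 1 library stood far from the other 3 for 4 of the 34 named genes, a gap that chance gives in about 1 of 20 groups. Sfrp5 was at 16.6 RPM in HC3, Lef1 at 1.69 RPM in HC3 and Aes at 603 RPM in HC4, each the highest, and Invs was at 13.4 RPM in HC3, the lowest. For 10 named genes the interaction term of limma between condition and Xist set had an unadjusted p under 0.05, with NC3 as an arm of 1 library. The effect without Xist minus that with Xist was 2.30 for Dkk2, 0.82 for Dkk3, 2.55 for Fzd1, 4.25 for Fzd4, 1.61 for Wnt5a, 3.96 for Wnt11, 2.55 for Ctnnb1, 2.28 for Lrp5, −1.02 for Lrp6 and 2.87 for Nkd1 on the log2 scale. As 21.2% of all genes passed this test and NC3 alone is normocapnia without Xist, the set and that library cannot be told apart.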

How the results depend on the processing

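The count of the 36 genes called, 1 in the fit reported, was 2 with a pseudocount of 0.1, 0 with a pseudocount of 5, a filter at 1 RPM or edgeR with a filter, 5 with a macrophage marker covariate (Fzd2, Fzd3, Fzd8, Wnt5b and Wnt7b, all higher), 3 with a satellite cell marker covariate (Dkk3 and Wnt9a lower, Wnt7b higher), 6 in either Xist set alone (all lower with Xist, all higher without), and 0 to 1 with a library left out (0 without NC2 or HC1; without NC1 the 1 was Wnt7b, not Dkk3). With Xist as covariate the 1 was Sfrp4 (−0.61), and in edgeR without a filter Wnt7a. Of the 89 pathway genes, 2 were called, against 0 with a pseudocount of 5, 5 with median-of-ratios scaling, 7 with quantile normalization or DESeq2, 4 with Xist as covariate, 6 with the macrophage and 5 with the satellite cell covariate, 9 with and 26 without Xist, and 1 to 10 with a library left out (1 without HC1, 5, 7 and 10 without NC1, NC2 and NC3). Of all genes, 615 were called, against 1049 in edgeR without a filter, 1304 in DESeq2, 1316 with Xist as covariate, 1455 with the macrophage and 1006 with the satellite cell covariate, 1015 with and 4976 without Xist, and 376 to 1990 with a library left out (376 without HC2, 385 without HC1, 1205 without NC2 and 1990 without NC1). The cause of these moves was not tested. Whether the replicate numbers pair the samples cannot be settled from so few libraries. Deviations of same-numbered libraries correlated at −0.35, 0.50 and −0.04, and only NC2 had its same-numbered library as its closest in hypercapnia. With a replicate block 0 of the 36, 3 pathway genes (Invs, Csnk1g3 and Fst, not Znrf3) and 598 of all genes were called. Reversed with a call were Dkk2 (−0.65), Sfrp5 (−1.11) and Wnt11 (−1.48) in the libraries with Xist and Fzd4 (2.50) in those without. Of 743 values of 34 named genes, 689 stayed on their side of the threshold, 26 were newly called, 24 lost a call and 4 reversed, and 93 uncalled values had another sign. Dkk3 kept its call in 11 of 21 alternatives. Values under the floor of 3 reads or at it limit 11 of the 36 genes in every library.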
